A study of Mus musculus with 126 samples.

Results

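Histone acetyltransferases were examined through 9 genes, Ep300, Crebbp, Kat2a, Kat2b, Kat5, Kat6a, Kat6b, Kat7 and Kat8, which were taken by name from the 23420 genes of the deposited RNA-seq count table. They encode the main enzymes that oppose the deacetylases inhibited in this experiment. All 9 were among the 15822 genes that passed the filter on low counts, and the lowest count of any of them in any library was 423, for Kat5. The 126 samples of the series come from mouse embryonic stem cells and concern the binding of transcription factors, DNA methylation and histone acetylation, of which the 8 RNA-seq libraries carry gene expression and are used here.

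The libraries form 4 groups of 2. The wild type is the J1 line, and the triple knockout cells (TKO), of the same strain, are Dnmt1-/-, Dnmt3a-/-, Dnmt3b-/- and so lack the enzymes that write and maintain DNA methylation. Each genotype received either Trichostatin A (TSA), an inhibitor of zinc-dependent histone deacetylases, at a labelled 5 ng/µl or 0.0033% DMSO, its solvent, for 36 h. All cells were cultured on gelatin in medium with serum and leukaemia inhibitory factor, with no feeder layer named. The labels do not say whether the knockout line is 1 clone, nor whether the libraries of a group came from separate cultures, so p-values measure the spread between these libraries, which may be technical.

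Histone acetyltransferases move the acetyl group of acetyl-CoA onto lysines of histone tails, which loosens the grip of histones on DNA and creates docking sites for bromodomain proteins. They fall into 3 families. CBP (Crebbp) and p300 (Ep300) are large coactivators that acetylate histone H3 at enhancers. GCN5 (Kat2a) and PCAF (Kat2b) are the alternative catalytic subunits of the SAGA and ATAC coactivator complexes. The MYST family comprises TIP60 (Kat5), MOZ (Kat6a), MORF (Kat6b), HBO1 (Kat7) and MOF (Kat8). All of them work in complexes with scaffold and reader subunits, some of which are shared between members. In embryonic stem cells, p300 marks active enhancers, and Kat5 and Kat8 complexes are known for their part in self-renewal.

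The sequences directly upstream of 5 of these genes are shown because they belong to the gene with the largest difference between treatments (Kat2b), its paralogue (Kat2a), the other gene that differed by over 2-fold in both genotypes (Crebbp), the gene called between genotypes (Kat6b), and the gene called in neither treatment comparison (Kat7). Each is the 250 bases before a RefSeq start site in GRCm38.p6, read 5′ to 3′ on the gene's strand, and each abuts the start of the gene in the deposited table. Capitals mark matches on either strand to the consensus of the 5 transcription factors that the series assayed: GGGCGG for SP1, AANATGGCG for YY1, CACGTG for MAX, CCGGAAG for GABPA and GCGCANGCG for NRF1.
Kat2b, chr17:53566721-53566970, plus strand: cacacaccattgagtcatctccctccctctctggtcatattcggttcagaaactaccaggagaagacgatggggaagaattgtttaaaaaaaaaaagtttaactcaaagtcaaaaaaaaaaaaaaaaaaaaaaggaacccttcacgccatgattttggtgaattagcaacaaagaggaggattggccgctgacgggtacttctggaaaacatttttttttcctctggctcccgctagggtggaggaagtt
Kat2a, chr11:100712468-100712717, minus strand: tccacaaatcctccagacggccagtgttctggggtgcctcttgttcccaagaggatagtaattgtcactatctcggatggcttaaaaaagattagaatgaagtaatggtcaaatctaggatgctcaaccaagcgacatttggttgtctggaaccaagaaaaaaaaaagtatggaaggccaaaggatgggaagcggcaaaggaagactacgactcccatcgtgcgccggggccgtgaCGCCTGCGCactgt
Crebbp, chr16:4213405-4213654, minus strand: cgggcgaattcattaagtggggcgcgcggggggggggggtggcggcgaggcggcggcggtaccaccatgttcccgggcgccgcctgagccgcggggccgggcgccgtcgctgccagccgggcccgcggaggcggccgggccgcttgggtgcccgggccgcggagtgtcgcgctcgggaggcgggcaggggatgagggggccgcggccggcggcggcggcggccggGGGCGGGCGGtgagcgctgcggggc
Kat6b, chr14:21499520-21499769, plus strand: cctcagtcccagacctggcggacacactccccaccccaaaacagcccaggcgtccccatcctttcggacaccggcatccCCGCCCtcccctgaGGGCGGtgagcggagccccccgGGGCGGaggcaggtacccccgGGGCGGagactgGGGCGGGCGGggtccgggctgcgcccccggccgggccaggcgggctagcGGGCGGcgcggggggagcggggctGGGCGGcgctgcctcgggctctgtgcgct
Kat7, chr11:95310247-95310496, minus strand: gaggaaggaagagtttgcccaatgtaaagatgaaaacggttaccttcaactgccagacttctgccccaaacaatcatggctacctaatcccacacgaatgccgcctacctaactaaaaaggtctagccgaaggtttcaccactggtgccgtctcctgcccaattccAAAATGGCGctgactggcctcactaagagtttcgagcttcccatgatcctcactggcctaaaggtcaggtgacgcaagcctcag

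The windows differed widely in base composition. Kat2b had 40.8% GC and 6 CpG dinucleotides, against a median of 52.4% GC and 6 CpG over the 32851 windows of the RefSeq table, and it held none of the 5 motifs. Its paralogue Kat2a had 48.8% GC and 11 CpG and held 1 NRF1 match that begins 14 bases before the start. Crebbp, at 84% GC with 44 CpG, was richer in GC than 99.7% of the windows and held 2 SP1 matches that overlap in 1 run. Kat6b had 78.8% GC and 8 SP1 matches, of which 1 pair overlaps. Kat7 had 50.8% GC, 8 CpG and 1 YY1 match that begins 84 bases before the start. Over all windows, 32.7% held an SP1 match, 1.12% a YY1 match, 6.02% a MAX match, 6.91% a GABPA match and 5.16% an NRF1 match. A match is a match of letters only, and the ChIP-seq samples of the series were not analysed here. RefSeq windows were found for 8 of the 9 genes, and some genes had more than 1. Another Kat2b window, chr17:53583876-53584125, had 48.4% GC, 5 CpG and none of the 5 motifs. Another Kat6b window, chr14:21499535-21499784, had 79.6% GC and 8 SP1 matches. Their sequences are not shown. Kat6a had none in the table.

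Depth and checks apply to all results. Each library held between 13280631 and 15542527 counts, so 3 counts correspond to 0.193 to 0.226 CPM (counts scaled to a library total of 1000000), far below every value given for the 9 genes. Such a floor covers counting error alone, because PCR copies of a read are not separate molecules. Counts of Dnmt1, Dnmt3a and Dnmt3b were lower in both TKO groups than in the wild type groups with the same treatment, with log2 differences of -3.72 to -1.55, and H1f0 and Cdkn1a, which are known to respond to deacetylase inhibitors, were higher with TSA in both genotypes, with log2 differences of 0.77 to 1.27. All 10 markers of pluripotent stem cells were detected in every library. In bulk RNA, fewer cells of a type and less RNA per cell cannot be told apart. Some markers moved with TSA. The summed level of the 10 pluripotency markers was 4428 to 5304 CPM in the 4 DMSO libraries and 2396 to 2720 CPM in the 4 TSA libraries, and 8 of the 10 were called lower in wild type and 7 of the 10 in TKO. The summed level of 6 trophoblast markers was 274 to 419 CPM with DMSO and 620 to 680 CPM with TSA in wild type, against 63.9 to 94.4 CPM and 255 to 259 CPM in TKO. For 6 fibroblast markers it was 37.6 to 44.6 CPM and 77.0 to 92.2 CPM in wild type, and 9.71 to 10.6 CPM and 31.6 to 48.8 CPM in TKO, with DMSO first. For 6 neuroectoderm markers it was 277 to 399 CPM with DMSO and 129 to 167 CPM with TSA over both genotypes. The sum of 6 mesoderm markers over both genotypes was 9.78 to 27.5 CPM and 36.6 to 58.2 CPM, with DMSO first. That of 6 endoderm markers was 12.8 to 14.5 CPM and 17.0 to 19.1 CPM in wild type, with DMSO first. In TKO it was 25.9 to 28.1 CPM and 32.9 to 35.6 CPM. Such sums can hide members that moved the other way. With TSA, neuroectoderm markers were called 1 higher and 4 lower in wild type, and 2 higher and 3 lower in TKO. For fibroblast markers it was 3 higher and 1 lower, then 6 higher, and for mesoderm markers 2 higher and 1 lower, then 3 higher. Trophoblast markers were called higher only, 6 and 4. In each genotype 1 endoderm marker was called, higher, with list medians of 0.34 and -0.11. Neurog2, a neuroectoderm marker, had no count in 1 wild type and 1 TKO DMSO library, and Elf5, a trophoblast marker, had none in 1 wild type DMSO library, which allows up to 3 counts each. The part of such shifts in the results on the acetyltransferases was not tested.

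With TSA, 8 of the 9 acetyltransferase genes fell, in wild type cells and again in TKO cells. Kat2b fell most, by 3.50-fold and 4.55-fold, Crebbp fell about as far in both genotypes, by 2.06-fold and 2.03-fold, and Kat7 was called in neither. Called means an adjusted p below 0.05 in edgeR's quasi-likelihood test. In wild type, 52.8% of all genes tested were called, 27% higher and 25.9% lower, and in TKO 58.7% were called, 30.8% higher and 27.9% lower. The same 8 genes were called lower in both genotypes, as were 21.2% of all genes tested. Genes of a similar level were called lower more often than genes at large: among the 5830 genes whose mean level lies between those of Kat8 (36.4 CPM) and Kat7 (372 CPM), 40.1% were called lower in wild type, 39% in TKO and 33.4% in both. The median log2 fold change of the 9 genes was -0.75 in wild type and -0.81 in TKO, against 0.01 and 0.04 over all genes. The 4 TSA libraries lay below the 4 DMSO libraries for all of the 9 genes except Kat7, an arrangement found for 24.6% of all genes tested.

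**Figure D1:**
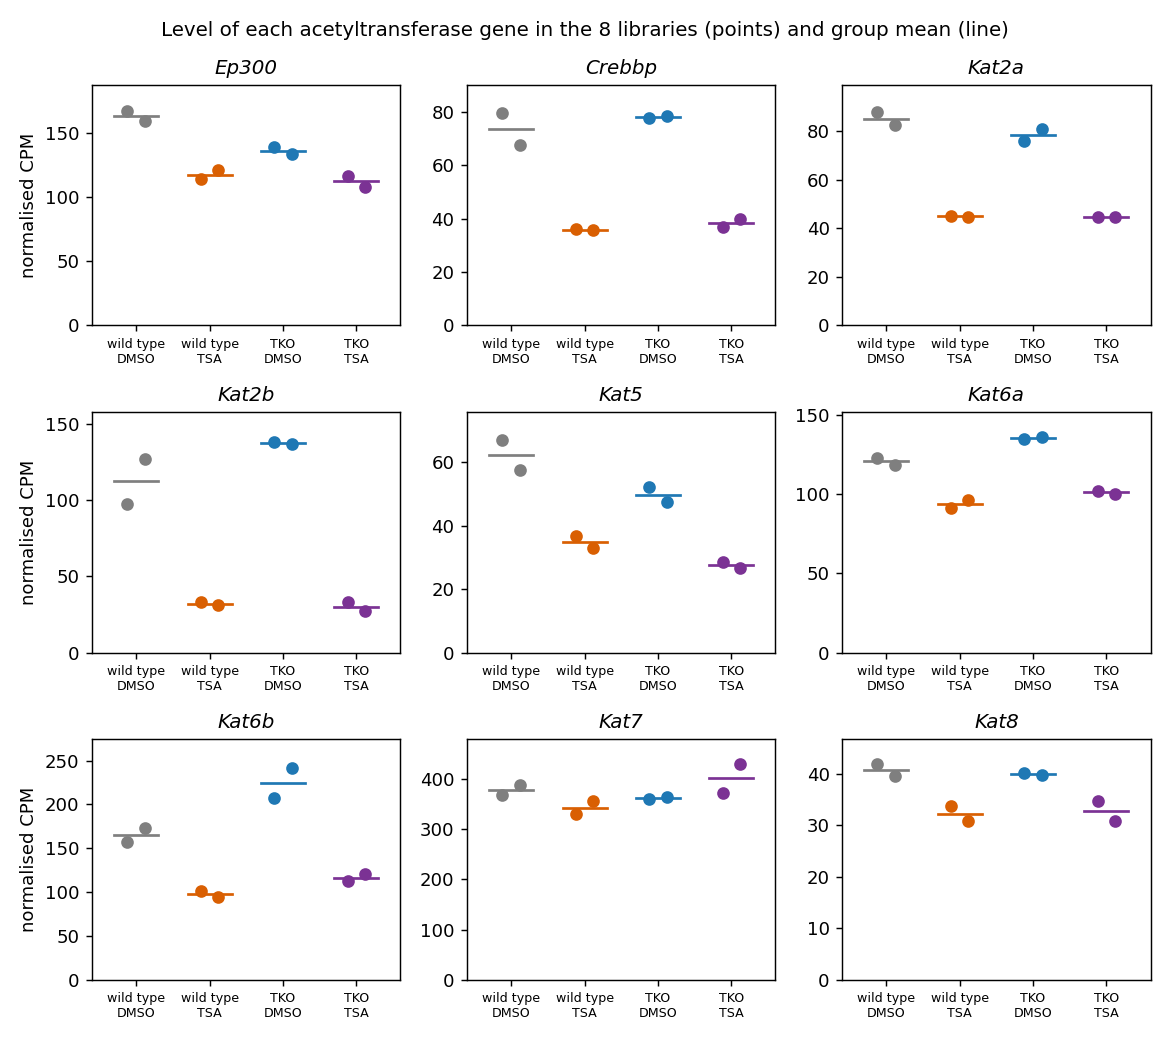
Level of each of the 9 acetyltransferase genes in normalised CPM (vertical axis, linear and from 0) in the 4 groups (horizontal axis). Points are the 2 libraries of a group and the line is their mean, and for every gene but Kat7 the 4 TSA points lie below the 4 DMSO points.

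Both CBP and p300 RNA were lower with TSA. Crebbp (chromosome 16, 4084048 to 4213404, minus strand) encodes CBP. With DMSO, the wild type libraries held 79.7 and 67.7 normalised CPM of Crebbp and the TKO libraries 77.8 and 78.3. With TSA these were 36.1 and 35.6, and 37.0 and 39.8. Every TSA library was thus well below every DMSO library, and the genotypes overlapped within DMSO. The log2 fold change with TSA was -1.04 (SE 0.11, adjusted p = 4.21e-05) in wild type and -1.02 (SE 0.11, adjusted p = 2.21e-05) in TKO. Ep300 (chromosome 15, 81586214 to 81652077, plus strand) encodes p300. Normalised CPM of Ep300 in wild type were 167 and 159 with DMSO and 114 and 121 with TSA. In TKO they were 139 and 133 with DMSO, and 116 and 108 with TSA. The wild type DMSO libraries stood highest and the TKO DMSO libraries next, while the TSA libraries of both genotypes overlapped. Ep300 fell with TSA by 0.48 on the log2 scale in wild type (SE 0.09, adjusted p = 0.0012) and by 0.28 in TKO (SE 0.09, adjusted p = 0.0197). In TKO the call on Ep300 was lost when the first or second TKO DMSO library (adjusted p = 0.107 and 0.0526) or the second TKO TSA library (0.128) was left out, and when libraries were scaled by total counts alone (-0.13, adjusted p = 0.221) or by upper quartiles (-0.20, adjusted p = 0.0659). The difference in the TSA response of Ep300 between genotypes was 0.20 (95% interval -0.08 to 0.48, adjusted p = 0.519), which was not called.

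Per base of exon, p300 RNA outnumbered CBP RNA in every library. With DMSO the ratio of Ep300 to Crebbp was 1.80 and 2.02 in the wild type libraries and 1.53 and 1.46 in the TKO libraries. With TSA it was 2.70 and 2.92, and 2.69 and 2.33. All 4 TSA libraries therefore had a higher ratio than all 4 DMSO libraries, and in DMSO both TKO libraries were below both wild type libraries. A ratio within a library does not depend on how libraries are scaled. The ratios are given as a description, and no test was run on them.

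The 2 GCN5-type enzymes fell in both genotypes. Kat2b (chromosome 17, 53566971 to 53672721, plus strand) encodes PCAF. Kat2b stood at 97.6 and 127 normalised CPM with DMSO and 33.1 and 31.0 with TSA in wild type. In the TKO libraries it stood at 138 and 137, and at 33.3 and 27.1. All TSA libraries were far below all DMSO libraries, the TKO DMSO libraries were above both wild type DMSO libraries, and the first wild type DMSO library was the lowest of the 4. The log2 fold change with TSA was -1.81 (SE 0.14, 95% interval -2.12 to -1.50, adjusted p = 1.16e-05) in wild type and -2.19 (SE 0.14, 95% interval -2.50 to -1.88, adjusted p = 1.86e-06) in TKO. Only 1.23% of the genes tested had a lower value than Kat2b in wild type and 1.31% in TKO. Kat2b spanned 4.55-fold between its highest and lowest group means, the widest span of the 9 genes.

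Kat2a (chromosome 11, 100704746 to 100712467, minus strand) encodes GCN5. With DMSO, the wild type libraries held 87.8 and 82.3 normalised CPM of Kat2a and the TKO libraries 75.8 and 80.9. With TSA these were 45.1 and 44.6, and 44.5 and 44.7. The 4 TSA libraries lay within 1 CPM of each other, below all DMSO libraries. The log2 fold change was -0.92 (SE 0.10, adjusted p = 4.05e-05) in wild type and -0.81 (SE 0.10, adjusted p = 4.06e-05) in TKO. Per base of exon, the ratio of Kat2b to Kat2a with DMSO was 0.72 and 1.00 in the wild type libraries and 1.18 and 1.09 in the TKO libraries. With TSA it was 0.475 and 0.449, and 0.484 and 0.393. PCAF RNA thus stood above GCN5 RNA in both TKO DMSO libraries and under it in all 4 TSA libraries.

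**Figure D2:**
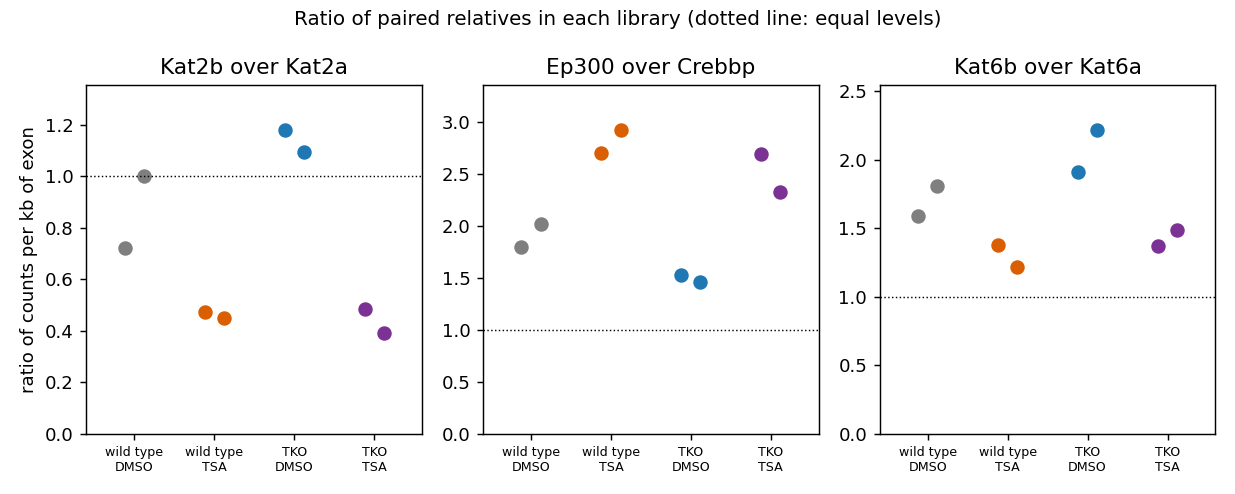
Ratio of 3 pairs of related acetyltransferase genes, in counts per kb of exon (vertical axis), in each of the 2 libraries of the 4 groups (horizontal axis); the dotted line marks equal levels. With TSA, Kat2b over Kat2a lies between 0.393 and 0.484 and Ep300 over Crebbp between 2.33 and 2.92, outside the range of the DMSO libraries for both pairs.

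The 5 MYST genes ranged from a clear fall to no call. Kat5 (chromosome 19, 5603014 to 5610094, minus strand) encodes TIP60, which acetylates histone H4 and acts in DNA repair. Normalised CPM of Kat5 in wild type were 67.0 and 57.7 with DMSO and 36.9 and 33.1 with TSA. In TKO they were 52.2 and 47.5 with DMSO, and 28.6 and 26.9 with TSA. In each treatment both TKO libraries lay below both wild type libraries, and in each genotype both TSA libraries lay below both DMSO libraries. The log2 fold change of Kat5 with TSA was -0.83 (SE 0.12, adjusted p = 0.000229) in wild type and -0.85 (SE 0.12, adjusted p = 0.00015) in TKO, and the difference between these was -0.01 (95% interval -0.38 to 0.36).

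MOZ and MORF are close relatives that share the BRPF scaffolds and acetylate histone H3. Kat6b (chromosome 14, 21499770 to 21672478, plus strand) encodes MORF. Kat6b stood at 157 and 173 normalised CPM with DMSO and 102 and 94.4 with TSA in wild type. In the TKO libraries it stood at 208 and 242, and at 113 and 120. For Kat6b the TKO DMSO libraries were highest, followed by wild type DMSO, TKO TSA and wild type TSA, with no overlap of libraries. Its log2 fold change with TSA was -0.75 (SE 0.10, adjusted p = 0.000189) in wild type and -0.95 (SE 0.10, adjusted p = 2.64e-05) in TKO. Kat6a (chromosome 8, 22859539 to 22943262, plus strand) encodes MOZ. With DMSO, the wild type libraries held 123 and 119 normalised CPM of Kat6a and the TKO libraries 135 and 136. With TSA these were 91.7 and 96.2, and 102 and 100. Kat6a showed the same order of groups over a narrower span, 1.44-fold against 2.29-fold for Kat6b. Its log2 fold change with TSA was -0.37 (SE 0.09, adjusted p = 0.00444) in wild type and -0.42 (SE 0.09, adjusted p = 0.00154) in TKO. The call on Kat6a in wild type was lost when libraries were scaled by total counts alone (-0.16, adjusted p = 0.135) or by upper quartiles (-0.22, adjusted p = 0.0512). Per base of exon, Kat6b over Kat6a with DMSO was 1.59 and 1.81 in the wild type libraries and 1.91 and 2.21 in the TKO libraries. With TSA it was 1.38 and 1.22, and 1.37 and 1.49, so every TSA library had a lower ratio than every DMSO library.

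Kat8 (chromosome 7, 127912517 to 127925762, plus strand) encodes MOF, which acetylates histone H4 at lysine residues as the catalytic subunit of the MSL and NSL complexes. Normalised CPM of Kat8 in wild type were 41.9 and 39.6 with DMSO and 33.7 and 30.8 with TSA. In TKO they were 40.1 and 39.8 with DMSO, and 34.8 and 30.9 with TSA. The genotypes overlapped in both treatments and the treatments did not overlap. The log2 fold change with TSA was -0.34 (SE 0.12, adjusted p = 0.0279) in wild type and -0.28 (SE 0.12, adjusted p = 0.0493) in TKO. The calls on Kat8 were lost under more alternatives than those on the other 7 genes. Scaling by total counts alone gave -0.13 in wild type (adjusted p = 0.341) and -0.14 in TKO (0.311), and the calls were also lost with upper quartiles (0.176 and 0.123) and DESeq2 (0.0764 and 0.118). In wild type the call was lost without the first DMSO library (adjusted p = 0.0951) or either TSA library (0.051 and 0.173), and in TKO without either DMSO library (0.148 and 0.128), the second TSA library (0.269) or either wild type TSA library (0.063 and 0.0649). The exons of Kat8 share 46 bases, 3.06% of their length, with Prss8 on the other strand, and no other of the 9 genes shares exon bases with another gene of the table.

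Kat7 (chromosome 11, 95271853 to 95310246, minus strand) encodes HBO1, which acetylates histones H3 and H4 with BRPF or JADE scaffolds. Kat7 stood at 368 and 389 normalised CPM with DMSO and 330 and 356 with TSA in wild type. In the TKO libraries it stood at 361 and 365, and at 373 and 431. In wild type the TSA libraries of Kat7 were below the DMSO libraries, and in TKO they were above them. The log2 fold change was -0.14 (95% interval -0.35 to 0.06, adjusted p = 0.221) in wild type and 0.15 (95% interval -0.06 to 0.36, adjusted p = 0.199) in TKO, and its sign in wild type turned to 0.06 under scaling by total counts alone and to 0.0055 with upper quartiles. Under scaling by total counts alone the value of Kat7 in TKO, 0.30, was called higher (adjusted p = 0.0199). The difference between the genotypes' responses was 0.29 (95% interval -0.0023 to 0.59, adjusted p = 0.349), which was not called.

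**Figure D3:**
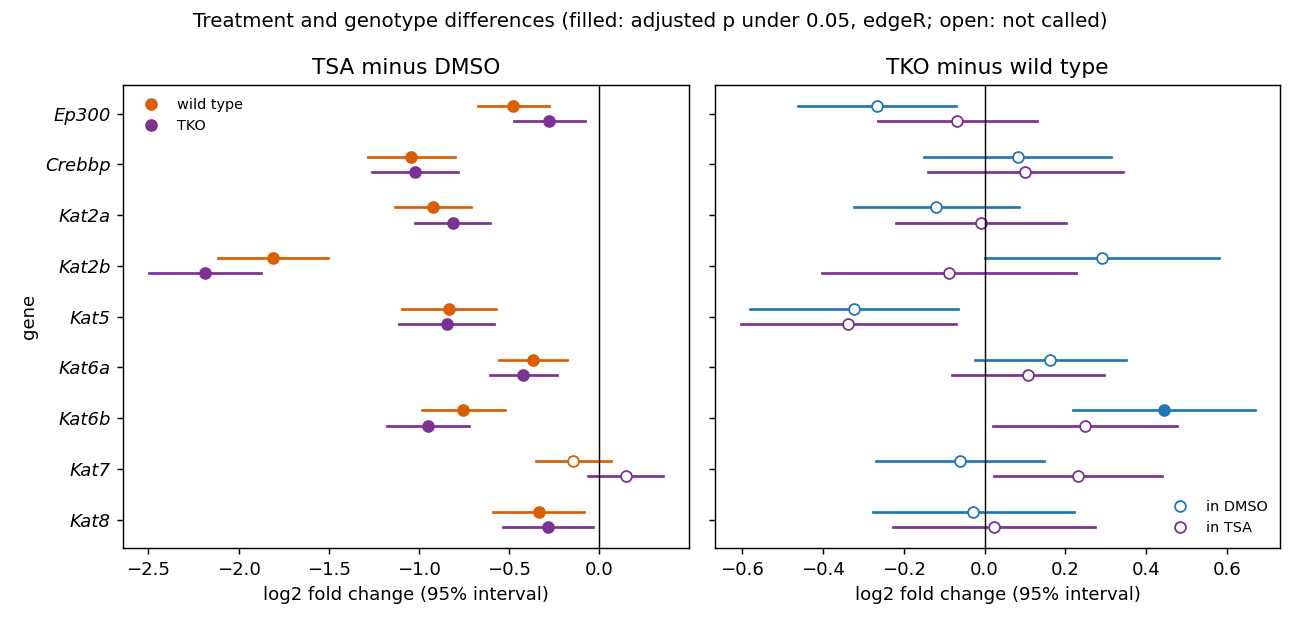
Log2 fold change (horizontal axis) with its 95% interval (bars) for each of the 9 genes (vertical axis), TSA minus DMSO at the left and TKO minus wild type at the right; filled points were called at an adjusted p under 0.05 in edgeR and open points were not. At the left, 8 genes lie below 0 in both genotypes and Kat7 is open in both; at the right the filled point is Kat6b in DMSO.

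The scaling of libraries bears on the smaller of these values. TSA libraries had scaling factors of 1.04 to 1.08 and DMSO libraries 0.929 to 0.955. Under scaling by total counts alone the median of all genes moved from 0.01 to 0.22 in wild type and from 0.04 to 0.19 in TKO, and with upper quartiles it moved to 0.16 and 0.11. The split of calls over all genes then was 5812 higher and 2433 lower in wild type, against 4266 and 4092 with TMM factors, and 5908 and 3267 in TKO, against 4872 and 4412. With total counts, 6 of the 9 acetyltransferase genes were called lower in wild type, and in TKO 6 were called lower and Kat7 higher. Relative to the median of all genes, Kat2b was at -1.82 in wild type under each of these scalings, Kat8 at -0.35 and Kat7 at -0.15 or -0.16. A scaling factor shifts all genes by about the same amount, so these relative values were bound to stay the same and test nothing.

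The genotype comparison in DMSO gave 1 called gene of the 9, against 20.4% of all genes tested, of which 9.63% were higher and 10.7% lower. Kat6b was higher in TKO by 1.36-fold, with a log2 fold change of 0.44 (SE 0.10, adjusted p = 0.0111). This call was lost without the first wild type DMSO library (0.36, adjusted p = 0.0828) or the second TKO DMSO library (0.33, adjusted p = 0.128). Ep300 was at -0.27 (95% interval -0.46 to -0.07, adjusted p = 0.056), Kat5 at -0.32 (95% interval -0.58 to -0.07, adjusted p = 0.0746) and Kat2b at 0.29 (95% interval 0.00076 to 0.58, adjusted p = 0.149), none of them called. Without the second wild type DMSO library, Kat2b (0.49, adjusted p = 0.0226) and Kat5 (-0.43, adjusted p = 0.0382) were called as well. The other genes lay between -0.12, for Kat2a, and 0.16, for Kat6a, and the median of the 9 was -0.03 against -0.0054 over all genes.

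Under TSA, none of the 9 was called between genotypes in edgeR, against 18.4% of all genes tested. At an unadjusted p under 0.05 there were 3 in edgeR, 3 in limma-voom and 3 in DESeq2. The values of largest size were Kat5 at -0.34 (95% interval -0.60 to -0.07, adjusted p = 0.0777), which was called with upper quartiles (-0.38, adjusted p = 0.0437), Kat6b at 0.25 (95% interval 0.02 to 0.48, adjusted p = 0.119) and Kat7 at 0.23. Kat2b, which stood at 0.29 in DMSO, was at -0.09 under TSA (95% interval -0.40 to 0.23). The interaction, that is the response of TKO to TSA after subtracting the response of wild type, was called for none of the 9 in edgeR and for 1.35% of all genes. At an unadjusted p under 0.05 there were 0 in edgeR, 1 in limma-voom and 0 in DESeq2. Kat2b had the largest size, -0.38 (95% interval -0.80 to 0.05, adjusted p = 0.413). The intervals still allow differences of this order, so the responses of the 2 genotypes are not shown to be alike.

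With both changes together, when TKO cells given TSA were set against wild type cells given DMSO, the same 8 genes were lower and Kat7 was not called, at 0.09 (adjusted p = 0.445), where 61.9% of all genes were called, 31.7% higher and 30.2% lower. Kat2b was at -1.90 (3.72-fold lower), Kat5 at -1.17 (2.25-fold lower), Crebbp at -0.94, Kat2a at -0.93, Ep300 at -0.54, Kat6b at -0.50, Kat8 at -0.31 and Kat6a at -0.26. Kat5 had the value of second largest size here, and of the fourth largest in each comparison of treatments within a genotype. The call on Kat6a was lost without the first wild type DMSO library (adjusted p = 0.0599) or either TKO TSA library (0.0604 and 0.0981), and that on Kat8 without the first wild type DMSO library (0.0991) or the second TKO TSA library (0.202). Scaling by total counts alone gave -0.09 for Kat6a (adjusted p = 0.39) and -0.14 for Kat8 (0.286), and both calls were also lost with upper quartiles (0.142 and 0.127), DESeq2 (0.0512 and 0.0834) and the 2 groups alone (0.074 and 0.0798). This comparison shares its libraries with those above and is no separate evidence.

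Levels can be compared between genes only per length, here as TPM, counts per base scaled to 1000000 per library, from the deposited exon lengths. TPM carry no TMM factors, so they serve comparisons between genes within a group and not between treatments. The mean of Kat7 in wild type, for instance, was higher with TSA in TPM and lower in normalised CPM. Kat7 was the highest of the 9 in every group. With DMSO it was at 146 ± 5.81 TPM in wild type and 142 ± 3.01 TPM in TKO, and with TSA at 154 ± 10.3 and 180 ± 20.8 TPM (SD, n = 2), with no overlap with the next gene. Crebbp was the lowest in every group, at 22.6 ± 2.57 and 24.3 ± 0.43 TPM with DMSO and 12.8 ± 0.040 and 13.6 ± 0.91 TPM with TSA, again without overlap. Between them, the order in wild type DMSO was Kat2a, Kat8, Kat5, Kat2b, Kat6b, Ep300 and Kat6a, from 64.1 to 30.5 TPM, and the first 5 of these overlapped with their neighbours in the order. Kat2b moved from rank 5 in wild type DMSO to rank 8 in wild type TSA, and from rank 3 in TKO DMSO to rank 8 in TKO TSA. Kat8 stood at rank 2 in both TSA groups, at 57.6 ± 2.88 and 58.1 ± 4.03 TPM. In wild type TSA, Kat5, Ep300 and Kat6b overlapped, and in TKO TSA Kat6a and Kat5 did.

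The summed level of the 9 genes, in normalised CPM per kb of exon, was 230 to 236 in the 4 DMSO libraries and 156 to 169 in the 4 TSA libraries. Kat7 made up 26.0% to 28.1% of that sum with DMSO and 35.5% to 42.8% with TSA. The sum of the 11 zinc-dependent deacetylases, Hdac1 to Hdac11, was 237 to 243 with DMSO and 229 to 259 with TSA. The acetyltransferase sums therefore did not overlap between treatments. The deacetylase sums overlapped over both genotypes together, but within wild type both TSA libraries (229 and 234) lay below both DMSO libraries (237 and 243), and within TKO both TSA libraries (248 and 259) lay above both DMSO libraries (237 and 241). Without scaling factors the acetyltransferase sums were 216 to 225 with DMSO and 166 to 179 with TSA, and the deacetylase sums were 223 to 230 and 248 to 276, so that the latter were higher with TSA in both genotypes and the order in wild type turned. Of the 11 deacetylase genes, 2 were called higher with TSA and 3 lower in wild type, and 3 higher and 2 lower in TKO, with medians of -0.0046 and 0.29, where 27% and 30.8% of all genes tested were called higher and 25.9% and 27.9% lower. Under scaling by total counts alone the deacetylase counts were 3 higher and 1 lower in wild type and 6 higher and 1 lower in TKO, with medians of 0.20 and 0.43. Hdac11 rose by 0.60 in wild type (adjusted p = 0.0273), Hdac10 fell by 0.53 (adjusted p = 0.0206), and in TKO Hdac7 rose by 1.22 (adjusted p = 0.0118) and Hdac6 by 0.91 (adjusted p = 9.86e-05), all on the log2 scale. The call on Hdac10 in wild type was lost under scaling by total counts alone (-0.33, adjusted p = 0.133). The other deacetylases called, named here after their values were seen, were Hdac2 (-0.27), Hdac4 (-0.52) and Hdac6 (0.41) in wild type, and Hdac4 (-0.59), Hdac9 (0.83) and Hdac10 (-0.60) in TKO. Between genotypes, 3 of the 11 were called lower in TKO in DMSO, and 1 higher and 2 lower under TSA. Hdac7 was at -2.13 in DMSO (adjusted p = 0.00148) and -1.16 under TSA (adjusted p = 0.019), so its rise in TKO began from a lower level. Hdac8 was at -0.70 in DMSO (adjusted p = 0.0157) and Hdac10 at -0.72 under TSA (adjusted p = 0.0174). Over all genes 20.4% and 18.4% were called.

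Partner subunits of the acetyltransferase complexes were followed in 4 lists. In all, 30 of 53 subunits were called lower with TSA in wild type and 1 higher, and in TKO 32 were lower and 3 higher, with 27 lower in both. The medians were -0.46 and -0.45, against 0.01 and 0.04 over all genes. Under scaling by total counts alone, 21 were lower and 4 higher in wild type, and 27 lower and 7 higher in TKO. The background shares given above, 25.9% and 27.9% of all genes called lower, are to be read beside these counts, as are the higher shares among genes of similar level to the acetyltransferases. The latter genes were not matched to the level of the subunits, some of which lie lower.

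Of the 19 SAGA and ATAC subunits, which partner Kat2a and Kat2b, 9 were called lower in wild type and 7 in TKO, and none was called higher. Their medians were -0.18 and -0.14, which turned to 0.02 and 0.01 under scaling by total counts alone. With that scaling 4 were lower and 1 higher in wild type, and 6 lower and 3 higher in TKO. Over all genes tested 25.9% and 27.9% were called lower, and 40.1% and 39% among genes of similar level to the acetyltransferases. The counts are near the latter shares, which are not matched to the level of this list, and are no result about the list. Supt3, for instance, stood at 3.95 normalised CPM in wild type DMSO. Taf5l, a SAGA core subunit, fell by 0.88 in wild type (adjusted p = 9.28e-05) and 0.84 in TKO (adjusted p = 8.16e-05). Tada1 fell by 0.74 in wild type (adjusted p = 0.00442), and Tada3, the adaptor next to the catalytic subunit, fell by 0.96 in TKO (adjusted p = 8.09e-05). Each is named for the genotype where it was among the 2 largest called changes, and no interaction was called in this list. With TSA, Tada1 in TKO went from 16.4 to 10.2 normalised CPM, and Tada3 in wild type from 36.9 to 25.1. Both medians were nearer 0 than the values of Kat2a and Kat2b themselves. Between genotypes, Taf5l was lower in TKO, at -0.50 in DMSO (adjusted p = 0.00764) and -0.46 under TSA (adjusted p = 0.0145). Tada3 was at -0.72 under TSA (adjusted p = 0.00294).

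Of the 15 TIP60 complex subunits, which partner Kat5, 8 were called lower in wild type and none higher, and 12 were lower and 1 higher in TKO, with medians of -0.53 and -0.69. Over all genes tested 25.9% and 27.9% were called lower, and 40.1% and 39% among genes of similar level to the acetyltransferases. Under scaling by total counts alone, 6 were lower and 2 higher in wild type, and 10 lower and 1 higher in TKO. The medians were then -0.33 and -0.54. The scaffold genes Epc1 and Epc2, enhancer of polycomb homologues, led both lists, with Epc1 at -1.12 (adjusted p = 5.33e-05) and -1.31 (adjusted p = 1.18e-05) and Epc2 at -0.99 (adjusted p = 0.000201) and -1.05 (adjusted p = 9.23e-05). The gene called higher in TKO, named after its value was seen, was Ep400 (0.75), the ATPase subunit of the complex.

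Of the 9 scaffold and reader genes of the MOZ, MORF and HBO1 complexes, 6 were lower and 1 higher in wild type, and 6 lower and 2 higher in TKO, with medians of -0.71 and -0.62. Over all genes tested 25.9% and 27.9% were called lower, and 40.1% and 39% among genes of similar level to the acetyltransferases. Under scaling by total counts alone, 5 were lower and 1 higher in wild type, and 5 lower and 2 higher in TKO. The medians were then -0.50 and -0.47. Phf15, the older symbol of Jade2, a scaffold that directs HBO1, was at 55.8 ± 0.66 normalised CPM with DMSO and 21.0 ± 0.24 with TSA in wild type, and at 37.2 ± 4.61 and 12.3 ± 1.28 in TKO (SD, n = 2). It fell with TSA by 1.41 (adjusted p = 2.2e-05) and 1.59 (adjusted p = 6.08e-06), and it was also lower in TKO than in wild type, by -0.58 in DMSO (adjusted p = 0.0074) and -0.76 under TSA (adjusted p = 0.00362). Brpf3, a scaffold of HBO1, MOZ and MORF, fell by 1.06 (adjusted p = 9.05e-05) and 1.49 (adjusted p = 7.11e-06). Other scaffold genes moved the other way. Those called higher, named after their values were seen, were Phf16, the older symbol of Jade3 (0.43 and 0.61), and in TKO also Brd1 (0.32).

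Of the 10 MSL and NSL subunits, which partner Kat8, 7 were lower in each genotype and none was higher, with medians of -0.57 and -0.59. Over all genes tested 25.9% and 27.9% were called lower, and 40.1% and 39% among genes of similar level to the acetyltransferases. Under scaling by total counts alone, 6 were lower in each genotype and 1 was higher in TKO, with medians of -0.37 and -0.44. Phf20, an NSL reader subunit, fell by 1.16 (adjusted p = 1.74e-05) and 1.41 (adjusted p = 2.84e-06), Msl1, the MSL scaffold, fell by 1.14 in wild type (adjusted p = 3.42e-05), and Kansl2 fell by 1.20 in TKO (adjusted p = 2.45e-05). At most 2 genes are named per genotype, so a gene named for 1 genotype is not thereby specific to it. Msl1 also stood lower with TSA in TKO, at 30.3 against 61.9 normalised CPM, and no interaction was called in this list. Kat8 itself was at -0.34 and -0.28.

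Calls among partners of CBP and p300 went both ways. Of 8 CREB, CRTC, CITED and related genes, 3 were called higher and 1 lower in each genotype, with medians of 0.05 and 0.16. The 4 called are near the background, 52.8% of all genes tested in wild type and 58.7% in TKO, so the counts are no result about the list. Cited1, a coactivator that binds CBP and p300, went from 3.14 ± 1.11 to 9.78 ± 0.10 normalised CPM with TSA in wild type and from 4.31 ± 1.26 to 19.3 ± 3.54 in TKO (SD, n = 2). Its log2 fold change was 1.62 (adjusted p = 0.000673) and 2.16 (adjusted p = 4.42e-05), and it was 0.98 higher in TKO than in wild type under TSA (adjusted p = 0.0147). Cited4 rose by 1.67 (adjusted p = 0.0119) and 2.08 (adjusted p = 0.00166) from a low level, 0.61 ± 0.05 normalised CPM in wild type DMSO and 0.74 ± 0.08 in TKO DMSO (SD, n = 2). The others called, named after their values were seen, were Crtc3, which was higher (1.27 and 1.55), and Creb1, which was lower (-0.62 and -0.40), and the call on Creb1 in TKO was not kept under scaling by total counts alone, where none of the 8 was called lower.

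Among 9 other genes with described acetyltransferase activity, 2 were called higher and 5 lower in wild type, and 1 higher and 4 lower in TKO, with medians of -0.23 and -0.08. Under scaling by total counts alone these counts were 4 higher and 2 lower, and 3 higher and 3 lower. Over all genes tested, 27% and 30.8% were called higher and 25.9% and 27.9% lower. Among genes of similar level to the 9 members, 40.1% and 39% were called lower. The counts are not read as a result about the list. Clock, the circadian transcription factor, fell by 0.73 (adjusted p = 0.000503) and 0.82 (adjusted p = 0.000152), and Csrp2bp, the older symbol of Kat14 of the ATAC complex, by 0.69 (adjusted p = 0.000835) and 0.57 (adjusted p = 0.00213). Csrp2bp shares 7.28% of its exon length with Pet117, so its counts are less certain. The genes called higher, named after their values were seen, were Hat1, the type B enzyme that acetylates new histone H4, at 0.34 and 0.44, and in wild type Ncoa1 at 0.36; the others called lower were Elp3 (-0.23 and -0.33), Naa40 (-0.30 and -0.46) and in wild type Gtf3c4 (-0.33). Between genotypes, the nuclear receptor coactivators Ncoa1 and Ncoa3 were higher in TKO, Ncoa1 by 0.95 in DMSO (adjusted p = 0.000818) and 0.70 under TSA (adjusted p = 0.00492), and Ncoa3 by 0.40 (adjusted p = 0.0111) and 0.44 (adjusted p = 0.0084).

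**Figure D4:**
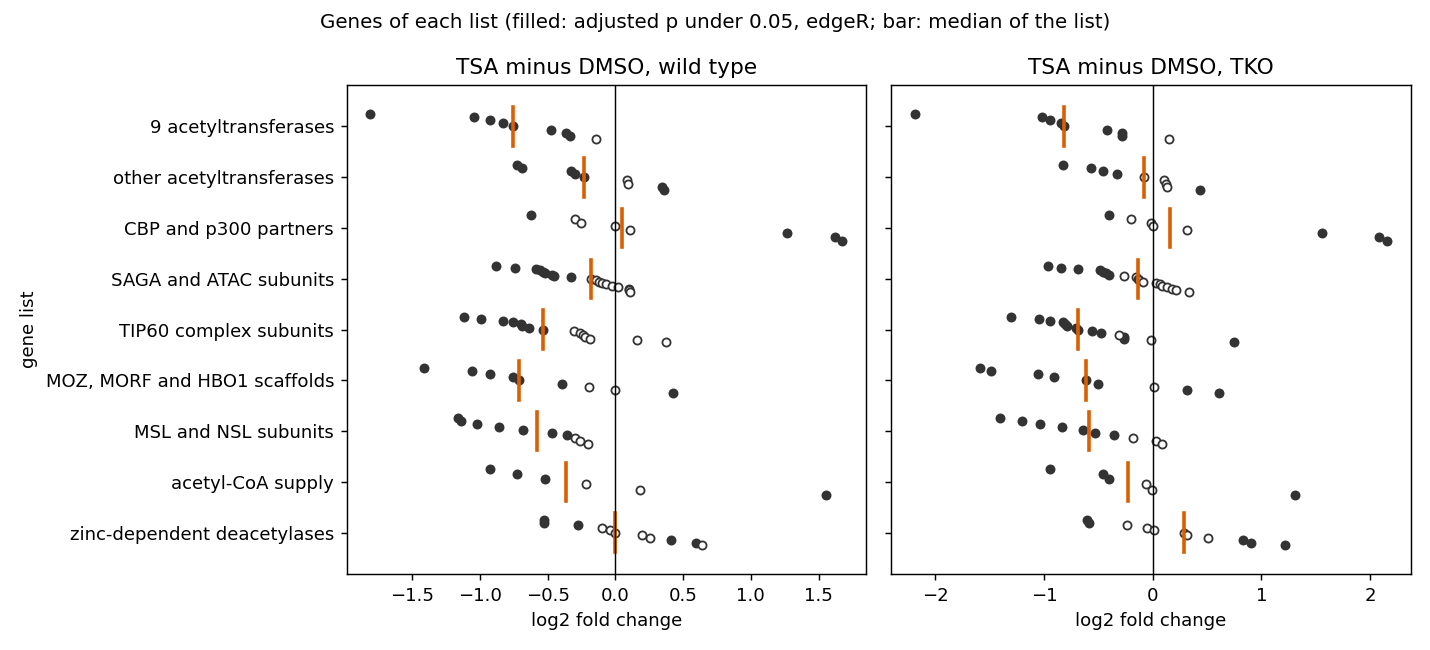
Log2 fold change with TSA (horizontal axis) of each gene of the 9 acetyltransferases and of 8 companion lists (vertical axis), in wild type at the left and TKO at the right; filled points were called at an adjusted p under 0.05 in edgeR and vertical bars are list medians. The median of the 9 acetyltransferases was -0.75 and -0.81, and that of the deacetylases was -0.0046 and 0.29.

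For the 4 members whose group means spanned over 2-fold, Kat2b, Crebbp, Kat5 and Kat6b, genes with the most similar profile were sought by the root mean square difference in log2 normalised CPM over the 8 libraries, each gene centred on its own mean, among 11537 genes. For Kat2b the nearest were Tet2 (0.112), Dtx3l (0.135) and Gusb (0.136), where a flat profile would give 1.00. For Crebbp, Mafg (0.066) and Ndst1 (0.076) were among the nearest, against 0.516 for a flat profile. For Kat5 they were 1810009A15Rik (0.039), Use1 (0.043) and BC053749 (0.054), against 0.451, and for Kat6b Usp13 (0.074), Epha4 (0.081) and Mrpl35 (0.092), against 0.465. The libraries share treatment and genotype, and these values describe likeness over 8 libraries and carry no test.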

How the data were processed

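RNA was measured by ribosome-depleted, strand-directional paired-end RNA-seq, per the labels' protocols. The authors deposited raw read counts per gene with the position and summed exon length of each gene, and these counts were used as deposited. The submitters' processing notes name TopHat2 2.0.13, featureCounts 1.4.5-p1, edgeR 3.22.3 and the build mm10, with no roles. Strand setting, annotation and how reads that map to several places were handled are not given in the sources used here. Counts of genes with shared exon bases are therefore less certain. Beside the genes flagged where they are named, Msl1 shares 2.17% of its exon length with another gene. For Acss1 the share is 2.03%, for Epc1 1.78%, for Hdac7 0.58% and for Tada1 0.42%. The deposited exon length, another value of the authors' table, served for TPM and levels per kb.

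The tests used edgeR 4.0.16 (R 4.3.3). Of the genes, 15822 passed filterByExpr. Libraries were scaled by TMM, and the quasi-likelihood fit of 4 group means to 8 libraries had 4 residual degrees of freedom. The 6 contrasts were tested two-sided with Benjamini-Hochberg adjustment over all genes tested, and an adjusted p below 0.05 made a call. A standard error is the fold change over the root of its F. The common biological coefficient of variation was 10.3%. The scripts were tested on simulated data. Replicates differed by a chi-square per degree of freedom of 5.28 to 12.2, more than sampling noise, and each was counted as 1 sample. Normalised CPM are counts scaled to a total of 1000000 after TMM factors. Alternatives were other scalings, filters and tools (DESeq2 1.42.0, limma 3.58.1), a replicate block, the 2 groups alone, each library left out, and an adjusted p below 0.01.

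The members and lists were chosen with earlier results of these data known. All 9 members are named in each contrast, with at most 2 called genes per companion list and contrast, those of largest log2 fold change at a mean of at least 1 CPM. For members spanning at least 2-fold, the 3 most similar profiles were named among genes at a mean of at least 5 CPM; 1 of them is not reported here. Start sites and promoter windows are from RefSeq, GRCm38.p6, which matched 8 of the 9 members by symbol.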

Additional observations from a re-analysis of the deposited data

How the results depend on the processing

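The calls of a fall with TSA in both genotypes held under all 17 alternative analyses for Kat2b, Crebbp, Kat2a, Kat5 and Kat6b, with Kat2b between -1.99 and -1.60 in wild type and between -2.34 and -2.04 in TKO. Those on Ep300 in wild type and Kat6a in TKO held as well. The call on Kat8 was lost under 7 alternatives in wild type and 10 in TKO, that on Ep300 in TKO under 5, and that on Kat6a in wild type under 2. Of the members' values under all alternatives, 839 kept direction and call, 39 lost the call, 8 gained one and 23 turned their sign, none of the last being called. Leaving out 1 library gave 7 to 8 members called with TSA in wild type, 6 to 8 in TKO, 0 to 3 for TKO in DMSO, 0 to 0 for TKO under TSA, 0 to 0 for the interaction and 6 to 8 for both changes together. For TKO in DMSO the count of 1 became 0 at an adjusted p below 0.01 and 3 with the replicate block, which added Ep300 (-0.27, adjusted p = 0.037) and Kat5 (-0.32, adjusted p = 0.026); for TKO under TSA the count of 0 became 1, Kat5, with upper quartile factors (adjusted p = 0.0437) and 1, also Kat5, with the replicate block (adjusted p = 0.0278).

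The titles share replicate numbers between groups, and deviations of same-numbered libraries had positive correlations in all 6 group pairs, of 0.120 to 0.366 in 5 and of 0.0586 between wild type DMSO and TKO TSA. The labels do not say what a number shares, so whether the numbers pair the libraries is not settled, and the analysis without the block was kept. The replicate block raised the calls over all genes in every contrast, from 8358 to 9256 and from 9284 to 10039 with TSA in wild type and TKO, from 3221 to 4217 and from 2910 to 4097 for TKO in DMSO and under TSA, from 9793 to 10413 for both changes together and from 213 to 633 for the interaction. With it, 8 members were called with TSA in each genotype, 0 for the interaction and 8 for both changes together.

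The signs that turned were as follows, in log2 units. With total counts only, Kat7 with TSA in wild type was at 0.0612, Kat8 for TKO under TSA at -0.0115, and the interactions of Crebbp and Kat8 at -0.0358 and -0.00448. With upper quartile factors, Kat7 with TSA in wild type was at 0.0055, Kat8 for TKO in DMSO at 0.00342 and under TSA at -0.0193, and the interactions of Crebbp and Kat8 at -0.0555 and -0.0227. With no filter the interaction of Crebbp was at -0.00781. Leaving out 1 library gave ranges of -0.0634 to 0.109 for Kat8 and -0.240 to 0.0564 for Kat2b for TKO under TSA, -0.0306 to 0.187 for Crebbp for TKO in DMSO, and -0.0220 to 0.183 for Kat7 for both changes together. For the interactions the ranges were -0.117 to 0.0901 for Kat5, -0.0935 to 0.132 for Crebbp and -0.0357 to 0.137 for Kat8. The causes were not tested. A lone library left in a group was assumed to vary like the other groups. With 2 libraries per group, small differences such as those of Kat7 and Kat8 are at the limit of what could be called.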

Other observations

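Acetyl-CoA, the donor of the acetyl group, is made by cytosolic, nuclear and mitochondrial enzymes. A list of 6 genes of acetyl-CoA supply was followed, not all of which encode such enzymes. With TSA, 1 was called higher and 3 lower in each genotype, with medians of -0.37 and -0.23, where 27% and 30.8% of all genes tested were called higher and 25.9% and 27.9% lower. In TKO the 3 lower became 2 with total counts as the only scaling and with upper quartiles. Acss2, which makes acetyl-CoA from acetate, went from 12.2 ± 2.11 to 35.7 ± 0.76 normalised CPM with TSA in wild type and from 15.1 ± 0.81 to 37.3 ± 6.03 in TKO (SD, n = 2). Its log2 fold change was 1.55 (edgeR adjusted p = 4.15e-05) in wild type and 1.31 (adjusted p = 4.78e-05) in TKO, and 3.99% of its exon length is shared with another gene. Pdha1, a subunit of pyruvate dehydrogenase, fell by 0.93 (adjusted p = 3.36e-05) and 0.94 (adjusted p = 1.34e-05) on the log2 scale, and 21.8% of its exon length is shared with Map3k15. The others called lower, named after their values were seen, were Acly (-0.52) and Dlat (-0.72) in wild type and Acss1 (-0.46) and Dlat (-0.40) in TKO. Between genotypes, Acss1, the mitochondrial acetyl-CoA synthetase, was higher in TKO by 1.20 in DMSO (adjusted p = 0.000827) and by 0.56 under TSA (adjusted p = 0.0405), and the latter call was lost with total counts as the only scaling (adjusted p = 0.056).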
